A study of Mus musculus with 46 samples.

Results

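The 16 liver tumours of this series that carry a wild-type Myc transgene, switched on, were compared with each other. They were taken from the sample titles, with no use of measured values, and are 16 of 46 samples. Each title holds an ID number and a letter. The ID is taken here as the animal and the letter as a tumour of that animal, which is an assumption, since the labels do not explain either. ID125320 and ID125324 gave 4 tumours each, ID128992, ID128285 and ID126948 gave 2 each, and ID126947 and ID130395 gave 1 each, so that 7 IDs are covered. All mice were of the FVB strain. In the tumour mice the liver transactivator LAP-tTA switched on a tet-Myc transgene before birth. Also used here were 11 MycVD tumours from 10 IDs, whose transgene carries the V394D substitution, and 11 control livers from 11 IDs, labelled as control liver with no further genotype. Doxycycline, which switches the transgene off, is labelled only for another group, not used here. The labels give no ages. RNA was depleted of ribosomal RNA and sequenced without keeping the strand, and expression is given as exonic RPKM (eRPKM), reads per kilobase of exons scaled to library size. The Myc tumours had 7.27 to 12.65 M reads in genes per library (median 9.66 M).

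Myc is a transcription factor that drives ribosome production and cell division. Liver tumours driven by it hold dividing cells that express fetal liver genes and few of the genes of mature hepatocytes, and such livers often carry several separate nodules. A piece of tumour also holds blood, vessels and macrophages, and can hold adjoining liver. In bulk samples of this kind fewer cells of a type and less RNA per cell cannot be told apart. Tumours of 1 animal share its genotype, sex and blood, while each nodule has its own history.

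Genes that define the tissue were found in every library. Afp, which encodes the fetal plasma protein alpha-fetoprotein, lay between 53.9 and 181 eRPKM (median 106), Alb, the albumin gene, between 59.6 and 186 eRPKM (median 111), and Mki67, a gene of dividing cells, between 78.3 and 112 eRPKM (median 96.1).

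A set of 5 libraries had less Gapdh than the other 11, with ID125324-B, one of the 11, in between. Gapdh, a gene of glycolysis, was at 16.1 to 25.4 eRPKM in ID125320-B, ID128992-B, ID125324-A, ID125324-C and ID128285-B, and at 35.2 to 68.1 eRPKM in the other 11. The sum over 111 genes with pseudogene names was 123 to 174 eRPKM in the 5 and 198 to 284 eRPKM in the 11. Replication-dependent histone genes, whose messages lack a poly(A) tail, summed to 1003 to 1431 eRPKM in the 5 and 1412 to 2150 eRPKM in the 11. Among the other groups 1 control liver and 2 MycVD tumours also had Gapdh under 30 eRPKM. The labels do not say what sets these libraries apart, so results are given with all 16 libraries and again without the 5. The level under 30 eRPKM was chosen after the values were seen. ID125324-B was the lowest of the 11 in both measures, with 35.2 eRPKM of Gapdh and a pseudogene sum of 198 eRPKM. The next lowest of the 11 were at 44.8 eRPKM of Gapdh and a sum of 231 eRPKM. Results without the 5 thus still hold this library of intermediate values.

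The first question was which genes vary most at a given mean level. Spread was measured as the SD of log2(eRPKM + 0.5) over the 16 tumours, divided by the SD that a loess trend gives at that mean, because scarce transcripts vary more. Of 13292 genes with a mean of at least 1 eRPKM, 1046 (7.87%) varied at least 2 times as much as the trend and 104 at least 4 times. The median SD was 0.366 (log2) for genes of 1 to 5 eRPKM, 0.214 for 5 to 25 eRPKM and 0.164 for 25 eRPKM and over. Read sampling alone gives medians of 0.194, 0.071 and 0.0453 in these bands. These values are descriptions, with no test.

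**Figure D1:**
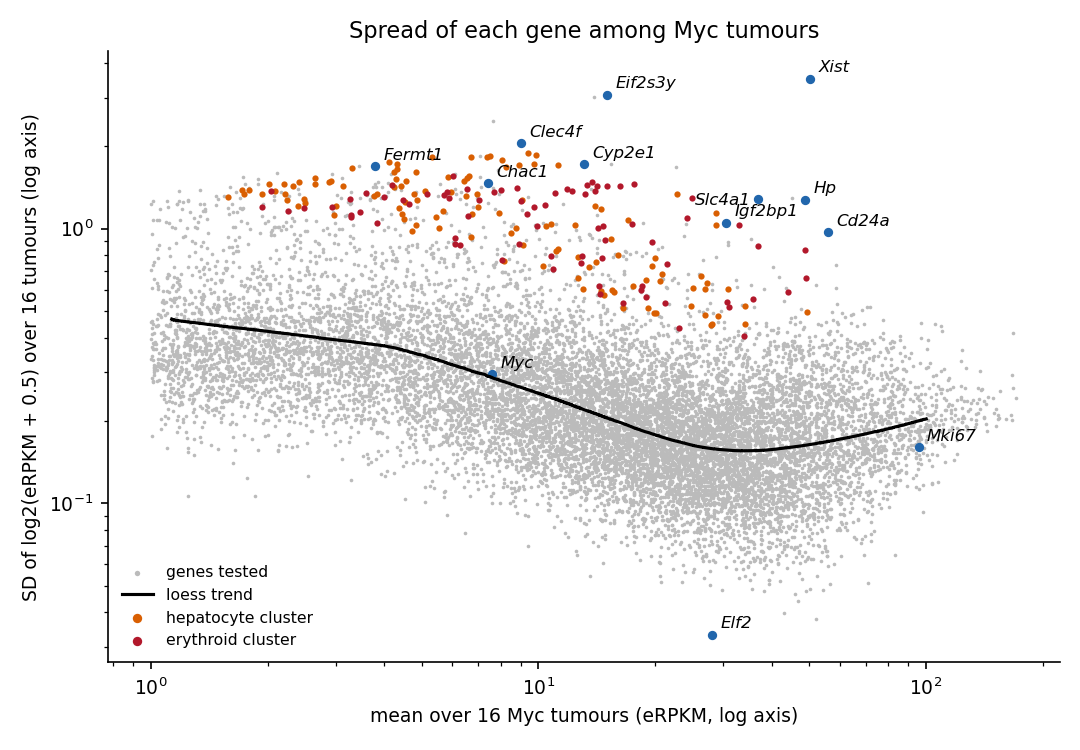
Each point is 1 of 13292 genes, with its mean over the 16 Myc tumours (eRPKM, log axis) against the SD of log2(eRPKM + 0.5) (log axis). The line is the loess trend, orange and dark red points are the hepatocyte and erythroid clusters described in the text, and blue points are named genes. Xist stands highest with an SD of 3.52 and Elf2 lowest of the named genes with 0.0332.

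Genes of the sex chromosomes spread farthest. Xist, the RNA that silences an X chromosome in females, had an SD of 3.52, which was 14.6 times the trend. It lay at 71.0 to 111 eRPKM in the 9 tumours of ID125324, ID130395, ID128285 and ID126948, and at 0.0852 to 0.817 eRPKM in the 7 tumours of ID125320, ID128992 and ID126947. Eif2s3y, a Y-linked translation factor gene, was the reverse, with 29.0 to 43.4 eRPKM in those 7 tumours and at most 0.137 eRPKM in the 9. All tumours of an ID thus fell on the same side. Ddx3y, a Y-linked RNA helicase gene, was at 33.5 to 40.2 eRPKM in 6 of the 7 tumours but at 7.91 eRPKM in ID128992-B, while ID128992-A had 36.1 eRPKM. In ID128992-B the Y-linked genes Eif2s3y and Uty, at 37.5 and 17.1 eRPKM, lay within the range of the other 6. Kdm5d, a Y-linked histone demethylase gene, was at 13.7 eRPKM there, below the 14.4 to 16.0 eRPKM of the other 6. ID128992-B is a library of low Gapdh, and so is ID125320-B, in which Ddx3y was at 33.5 eRPKM.

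Among abundant genes, the widest spread after Xist was in genes of hepatocytes and of blood. Hp, which encodes the haemoglobin-binding plasma protein haptoglobin, ran from 4.49 to 120.3 eRPKM (median 40.0), 8.21 times the trend. It was highest in ID125324-D and ID126948-C, at 120.3 and 113.5 eRPKM, and lowest in ID128992-A and ID130395-A, at 4.49 and 10.5 eRPKM. Slc4a1, the anion exchanger of the red cell membrane, ran from 6.45 to 82.6 eRPKM (8.03 times the trend) and Cyp3a11, a drug-metabolising cytochrome P450, from 3.65 to 82.2 eRPKM (6.71 times). Igf2bp1, an RNA-binding protein of fetal tissue, ran from 4.47 to 50.2 eRPKM (6.50 times). Aqp1, a water channel of red cells and vessels, ran from 7.93 to 62.1 eRPKM, Hamp, the gene of the iron hormone hepcidin, from 3.62 to 56.9 eRPKM, and Cd24a, a surface protein of immature blood and epithelial cells, from 12.6 to 103 eRPKM. In the 11 libraries the ratios of Hp and Slc4a1 were 11.1 and 10.3 times the trend. Reads of P450 and other gene families with near-identical copies may have been split among members, which leaves the level of a single member uncertain.

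Between 5 and 25 eRPKM genes of large spread, apart from the Y-linked ones, included Clu, which encodes the secreted chaperone clusterin (6.71 times the trend), Hemgn, a nuclear protein of blood precursors (6.23), and Fam46c, a poly(A) polymerase gene (5.95). Below 5 eRPKM they were Clec4g, a lectin of liver sinusoids, the organic anion transporter gene Slco1a4, Fgl1, a secreted protein of hepatocytes, Fermt1, an integrin activator of epithelia, the plasma serpin gene Serpina3k, Cyp2a12, Hamp2 and the steroid dehydrogenase gene Hsd17b6, at 3.67 to 4.11 times the trend.

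Other genes had a small measured spread. Elf2, a transcription factor of the ETS family, had 26.8 to 29.5 eRPKM (median 28.2), 0.211 times the trend. Its SD of 0.0332 was under the 0.0483 that read sampling gives, so no variation was detectable at this depth. Baz1b, a gene of chromatin remodelling, had 49.6 to 55.5 eRPKM (0.23 times the trend) and Sbno1 had 40.9 to 45.2 eRPKM (0.25 times). Genes of proliferation lay near the trend. The median ratio was 0.956 over 30 mitosis genes, 0.965 over 39 ribosome biogenesis genes and 0.842 over 26 genes of the Myc network and its classical targets, against 0.958 over all genes. Ncl, which encodes nucleolin, had 72.5 to 94.7 eRPKM (0.62 times), Odc1, an enzyme of polyamine synthesis, 84.4 to 121 eRPKM (0.752 times) and Max, the partner of Myc, 37.2 to 49.2 eRPKM (0.669 times). Baz1b, Sbno1, Ncl, Odc1 and Max had over 400 reads per kilobase, where a ceiling on reads per kilobase compresses differences, so their spread may be understated. Myc itself had 5.41 to 11.1 eRPKM (median 7.30, 1.03 times). Transgene reads and reads of the mouse gene were not told apart.

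Gene lists with known roles differed in spread. The median ratio to the trend was 4.70 over 13 erythroid genes, 3.48 over 15 neutrophil genes, 3.07 over 21 acute phase genes, 2.81 over 32 drug metabolism genes and 2.31 over 7 megakaryocyte and platelet genes. At least 2 times the trend was reached by 12 erythroid, 12 neutrophil, 14 acute phase and 24 drug metabolism genes of those tested, against 7.87% of all genes. Lists of other cells of liver were lower, with median ratios of 1.34 over 24 endothelial genes, 1.65 over 27 genes of stellate cells and matrix, 1.72 over 24 macrophage genes and 1.15 over 12 genes of T and NK cells. Further lists of hepatocyte genes were also lower, at 1.59 over 39 plasma protein genes and 2.16 over 22 bile acid genes. Genes of pericentral and periportal hepatocytes had 1.57 over 12 and 1.94 over 17. Camp, an antimicrobial peptide of neutrophil granules, ran from 1.42 to 36.7 eRPKM, S100a8, a calcium-binding protein of neutrophils, from 10.3 to 93.2 eRPKM and Ppbp, a platelet chemokine gene, from 0.901 to 38.5 eRPKM. The 16 neuronal genes summed to 1.90 to 4.07 eRPKM in the tumours, and none reached the mean of 1 eRPKM needed for testing.

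The second question was which genes vary together. The 500 genes of largest excess over the trend were grouped by average linkage on 1 minus Pearson r over the 16 libraries, which share 7 IDs, with a cut at 0.5. This gave 8 clusters of at least 10 genes, holding 401 of the 500. The correlation inside a cluster follows from how it was built and is given as a description.

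The largest cluster held 122 genes and is called the hepatocyte cluster here, after its leading genes (median pairwise r 0.83). It contained 18 of the 32 drug metabolism, 9 of the 21 acute phase, 7 of the 22 bile acid and only 5 of the 39 plasma protein genes tested. The genes closest to its mean were Cyp2j5, a cytochrome P450, Hrg, which encodes the histidine-rich glycoprotein of plasma, the complement regulator gene C4bp, Pigr, the receptor that carries IgA into bile, and Slc27a5, an enzyme of bile acid conjugation. C4bp had 29.7 eRPKM in ID125324-D, 22.6 in ID126948-C and 14.4 in ID128285-B, and 0.465 to 7.925 eRPKM in the other 13 tumours. Cyp2e1, which oxidises ethanol, was likewise at 61.5, 36.4 and 24.7 eRPKM in those 3 tumours and at 0.897 to 20.75 eRPKM in the other 13, while control livers had 122 to 235 eRPKM. The highest tumour was thus below every control liver. The cluster mean was 2.22 above its average (log2) in ID125324-D, 1.92 in ID126948-C and 1.18 in ID128285-B, and was lowest in ID128992-A and ID130395-A, at -1.20 and -1.15.

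Genes of liver-resident cells that are not hepatocytes were members too. Clec4f, a lectin of Kupffer cells, had 40.6 eRPKM in ID125324-D, 28.9 in ID126948-C and 22.3 in ID128285-B, and 0.0811 to 18.1 eRPKM in the other tumours, against 54.0 to 91.8 eRPKM in control livers. Clec4g had 18.9, 14.9 and 9.50 eRPKM in the same 3 tumours and 0 to 8.33 eRPKM in the rest, against 57.4 to 93.0 eRPKM in control livers. Lyve1, a receptor of sinusoids and lymph vessels, and Vsig4, a complement receptor of Kupffer cells, were members as well. The whole endothelial list summed to 325, 243.9 and 269.7 eRPKM in the 3 tumours and to 183 to 261 eRPKM in the rest, and the macrophage list to 660, 524 and 621 eRPKM, inside the range of the rest (495 to 787). Mitosis genes summed to 1198, 1177 and 1266 eRPKM in the 3 tumours and to 1156 to 1459 eRPKM in the others. The plasma protein list summed to 3184, 2828 and 2657 eRPKM in the 3 tumours, inside the range of the others (2103 to 3420). ID125324-A, whose hepatocyte cluster mean was -0.206, had the highest plasma protein sum. The part of adjoining liver in this pattern was not tested.

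**Figure D2:**
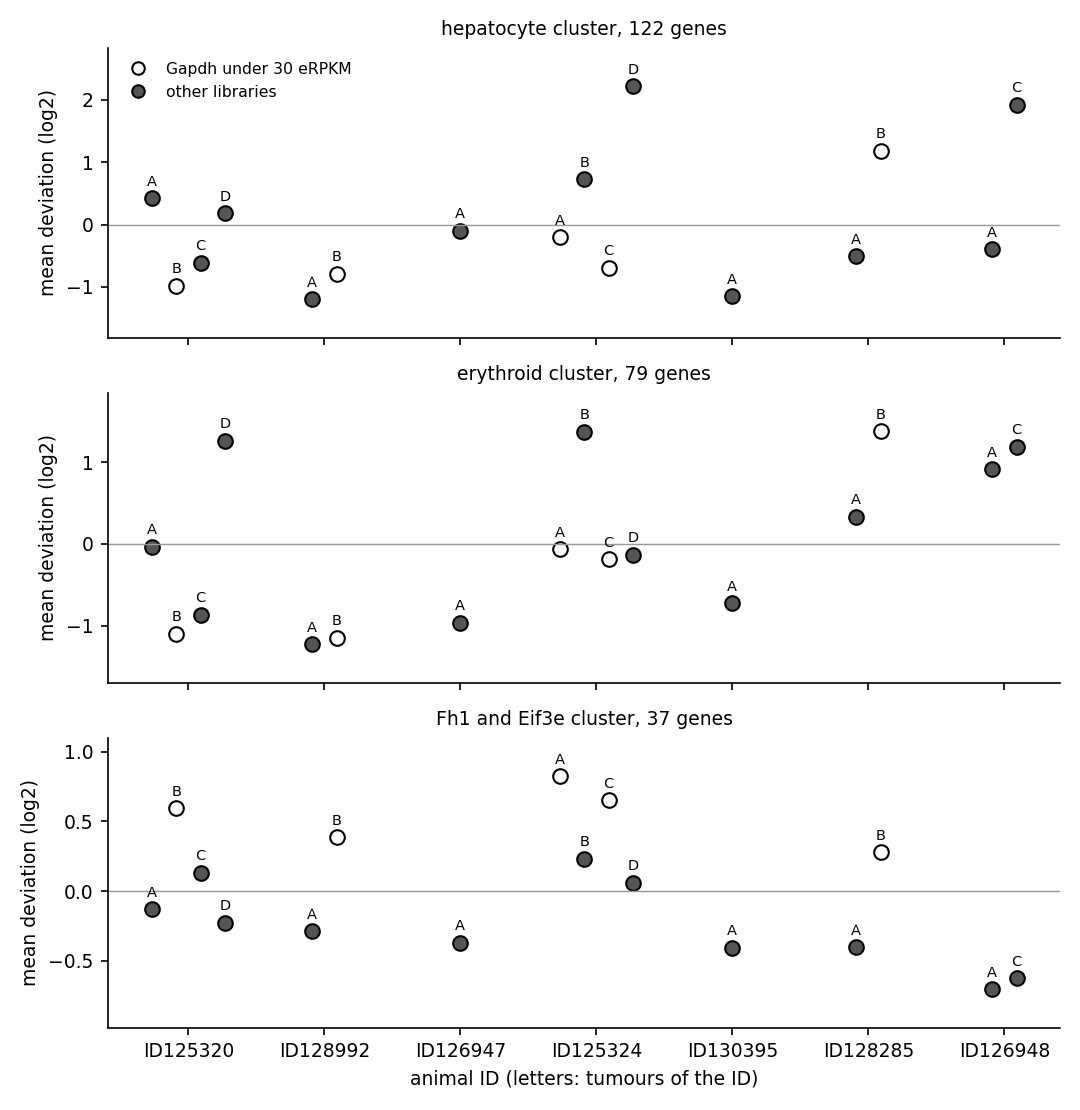
The mean deviation of 3 clusters from their 16-library average (log2, vertical axes) is shown for each Myc tumour by animal ID (horizontal axis), with letters for the tumours and open circles for the 5 libraries with Gapdh under 30 eRPKM. The hepatocyte cluster runs from -1.20 to 2.22 and differs between tumours of ID125324, ID128285 and ID126948, while in the Fh1 and Eif3e cluster the open circles stand above the filled ones of the same ID.

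A cluster of 79 genes is called the erythroid cluster here, after its leading genes (median pairwise r 0.87). It held 12 erythroid, 9 neutrophil and 2 platelet genes of the lists, among them the erythroid transcription factor genes Gata1, Klf1, Tal1 and Nfe2, the membrane skeleton genes Ank1 and Sptb and the haem synthesis gene Alas2. The genes closest to its mean were Slc14a1, a urea transporter gene, Nxpe2, Ermap, a red cell membrane protein, Nfe2 and Btnl10. Slc4a1 had 82.6 eRPKM in ID125324-B, 74.2 in ID125320-D, 73.9 in ID128285-B and 71.2 in ID126948-C. It had 6.45 to 12.5 eRPKM in ID130395-A, ID128992-A, ID128992-B, ID126947-A, ID125320-B and ID125320-C, and 26.6 to 59.7 eRPKM in the other 6. Every Myc tumour was above the control livers, where Slc4a1 reached 0.758 eRPKM.

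The hepatocyte and erythroid clusters did not order the tumours alike. ID128285-B and ID126948-C were high in both, with erythroid means of 1.38 and 1.19. ID125324-D, highest in hepatocyte genes, had an erythroid mean of -0.133, and ID125320-D, at 1.26 in erythroid genes, had a hepatocyte mean of 0.178. ID128992-A was lowest in both, at -1.23 in erythroid genes. When the 500 genes and clusters were found anew in the 11 libraries, 121 of the 122 hepatocyte genes (99.2%) lay in 1 cluster and made up 65.8% of it, and 78 of the 79 erythroid genes (98.7%) lay in another and made up 88.6% of it.

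Promoters of members are shown because the genes of each cluster move together. RefSeq (GRCm38.p6) gave a promoter for 94 of the 122 hepatocyte and 57 of the 79 erythroid genes. The 250 bases before the start site were searched on both strands for AGATAA, a core bound by GATA factors, for GTTAAT, a core of HNF1 sites, and for CAAAGTCC, a form of the HNF4 site. AGATAA was in 20 hepatocyte promoters (21.3%) and in 11 erythroid promoters (19.3%), against 6.34% of the 9822 promoters of genes tested and 10.3% of all 27025 promoters in the RefSeq table. GTTAAT was in 12 hepatocyte promoters (12.8%) and 0 erythroid ones, against 4.0% and 6.52%. CAAAGTCC was in 6 hepatocyte promoters (6.38%) and 0 erythroid ones, against 1.42% and 1.22%. A match is a run of letters and not a site. The examples are Epor, the erythropoietin receptor gene (chr9:21963577-21963826, minus strand), Alas2 (chrX:150547167-150547416, plus strand), C4bp (chr1:130661619-130661868, minus strand) and Pck1, a key enzyme of glucose synthesis (chr2:173152823-173153072, plus strand). Capitals mark the match to AGATAA in Epor and Alas2 and to GTTAAT in C4bp and Pck1, on either strand.
Epor: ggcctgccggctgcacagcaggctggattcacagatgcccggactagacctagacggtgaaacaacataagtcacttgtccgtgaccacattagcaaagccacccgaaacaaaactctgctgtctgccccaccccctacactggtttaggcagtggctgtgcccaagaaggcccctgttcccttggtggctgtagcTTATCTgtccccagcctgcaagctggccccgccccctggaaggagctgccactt
Alas2: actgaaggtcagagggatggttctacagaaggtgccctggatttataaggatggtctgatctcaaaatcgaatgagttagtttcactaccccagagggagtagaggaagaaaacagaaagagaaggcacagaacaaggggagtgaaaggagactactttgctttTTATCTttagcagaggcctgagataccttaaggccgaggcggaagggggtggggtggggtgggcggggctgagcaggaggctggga
C4bp: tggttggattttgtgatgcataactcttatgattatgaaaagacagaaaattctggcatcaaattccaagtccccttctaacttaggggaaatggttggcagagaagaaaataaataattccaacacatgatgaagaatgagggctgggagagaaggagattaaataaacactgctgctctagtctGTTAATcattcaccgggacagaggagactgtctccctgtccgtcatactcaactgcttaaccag
Pck1: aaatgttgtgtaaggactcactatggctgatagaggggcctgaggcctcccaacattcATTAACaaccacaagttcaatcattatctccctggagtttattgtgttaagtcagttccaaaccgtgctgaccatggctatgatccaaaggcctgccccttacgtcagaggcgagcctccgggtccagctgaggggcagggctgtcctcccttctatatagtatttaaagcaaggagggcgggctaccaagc

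Pck1 showed the hepatocyte pattern sharply, with 56.2 eRPKM in ID125324-D, 52.6 in ID126948-C and 0.288 to 13.7 eRPKM in the other 14 tumours. Control livers had 124 to 236 eRPKM.

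A cluster of 37 genes followed the libraries of low Gapdh (median pairwise r 0.92). Closest to its mean were Fh1, the fumarase gene of the citric acid cycle, Eif3e, a translation initiation factor subunit, Nsmce4a, Arpc3, a subunit of the actin-nucleating Arp2/3 complex, and Psma5, a proteasome subunit. Fh1 had 74.0 to 111 eRPKM in the 5 libraries of low Gapdh and 38.2 to 69.1 eRPKM in the other 11. Sdhb, a subunit of respiratory complex II and also a member, had 77.5 to 119.5 eRPKM in the 5 and 37.5 to 73.2 eRPKM in the 11. In each of the 4 IDs with both kinds of library, Fh1 was higher in those of low Gapdh. A cluster of 120 genes, of which 22 had names that the naming rule admits, moved the other way and held Gapdh, the ferritin gene copy Ftl2, Eno1b and histone genes. Hist1h4m, a histone H4 gene, had 15.2 to 22.4 eRPKM in the 5 libraries and 35.7 to 64.5 eRPKM in the 11. These genes were in part chosen through the same libraries, so no test of them is given. Such differences were not particular to these clusters. Of all 13292 genes, 2016 were higher and 2073 lower in the 5 libraries (limma with ID as a block, adjusted p under 0.05). Among the clusters found anew in the 11 libraries, at most 5 of the 37 genes (13.5%) and 23 of the 120 (19.2%) shared a cluster. Those clusters were built from 500 genes chosen anew, of which 378 were among the first 500. Genes that vary mainly through the 5 libraries can drop out of that choice. The low sharing therefore does not show how these genes vary together in the 11.

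A small cluster of 12 genes had only 3 with names that the naming rule admits. They were Spp1, which encodes osteopontin, Gpnmb, a glycoprotein of lipid-laden macrophages, and Il1rn, the interleukin-1 receptor antagonist gene. When clusters were found anew in the 11 libraries, these 3 lay in 1 cluster of 29 genes, without the other members of the 12. Spp1 was highest in ID128992-A at 43.1 eRPKM and lowest in ID125324-A at 2.49 eRPKM, and Gpnmb was highest in the same ID128992-A at 42.3 eRPKM and lowest in ID126948-C at 3.23 eRPKM.

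The third question was how much of the spread lies between IDs and how much between tumours that share one. Variance was divided per gene by the method of moments, with 9 degrees of freedom within IDs. The median share between IDs was 22.7% (quartiles -3.35% and 45%), where a negative value means that IDs differed less than the spread within them would give. The share was over 50% in 19.5% of genes and at or under 0 in 28.0%, and the median SD within IDs was 0.187 (log2). In the 11 libraries the median share was 28.2%, with 4 degrees of freedom within IDs. With a term for low Gapdh, chosen after the values were seen, it was 34.5%.

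Whole transcriptomes were also compared pair by pair. In the 15 pairs that share an ID 240 to 801 genes differed at least 2-fold (median 477), and in the 105 pairs of different IDs 162 to 1439 did (median 623). Among pairs without a library of low Gapdh the medians were 432 genes over 5 pairs of the same ID and 458.5 genes over 50 pairs of different IDs. The closest library had the same ID for 5 of the 14 tumours that have a partner, and for 3 of 7 without the libraries of low Gapdh. ID125324-D and ID126948-C were each other's closest library. Even the closest of the 120 pairs differed by more than read sampling (chi-square of 4.22 per degree of freedom).

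**Figure D3:**
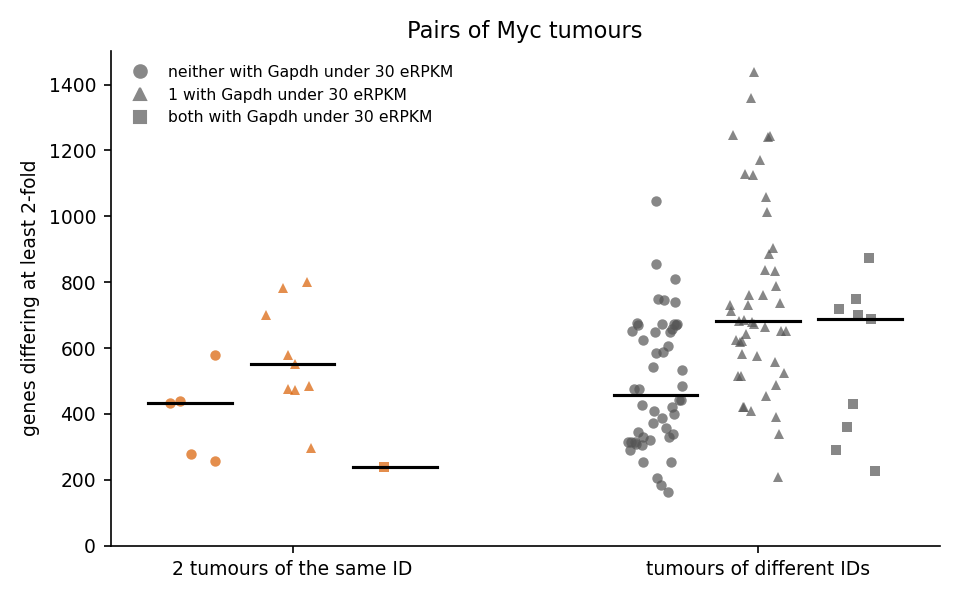
Each symbol is a pair of Myc tumours, with the number of genes that differ at least 2-fold on the vertical axis, for tumours of the same ID (left) and of different IDs (right). Circles, triangles and squares are pairs in which neither, 1 or both libraries had Gapdh under 30 eRPKM, and bars are medians. Pairs of the same ID, at 240 to 801 genes, lie within the range of the others, 162 to 1439.

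A moderated F-test over the 7 IDs (limma, Benjamini-Hochberg adjustment) called 7 of 13292 genes, or 0.0527%, and 2638 (19.8%) had an unadjusted p under 0.05. The 7 were Xist, Eif2s3y, Uty, Kdm5d, Ddx3y, Chac1 and Mir322, the last named because the count is small. For the 5 sex-linked genes 97.5% to 99.9% of the variance lay between IDs, with an adjusted p (limma) of 1.6e-06 for Ddx3y and lower for the others. Without the libraries of low Gapdh 12 genes (0.0903%) passed, and with a term for low Gapdh 434 (3.27%), with 1443 (10.9%) and 4042 (30.4%) at an unadjusted p under 0.05. The count of 434 moved between 6 and 1227 as single libraries or IDs were left out.

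Chac1, which encodes a glutathione-degrading enzyme and is a target of the stress factor Atf4, had the smallest F-test p of the named genes apart from the sex-linked ones and Mir322. It was at 9.17 to 17.96 eRPKM in the 4 tumours of ID125320, at 5.89 and 9.12 in ID128992, at 26.9 in ID126947 and at 11.1 in ID130395. It was at 0.658 to 2.11 eRPKM in the 4 tumours of ID125324, at 1.095 and 3.76 in ID128285 and at 0.88 and 2.11 in ID126948. The share of the variance between IDs was 86.8% (limma, adjusted p = 0.021, from 0.0053 to 0.21 over 34 alternative settings, called in 25). Without the libraries of low Gapdh its adjusted p was 0.21. Stc2, a secreted glycoprotein gene also induced by Atf4, had 2.99 to 26.1 eRPKM with 24.9% of the variance between IDs (limma, adjusted p = 0.32). The IDs are listed above by their Chac1 values, so that their division follows from the sorting. Those listed first were the 3 IDs of low Xist and ID130395, whose Xist was high. Chac1 and Stc2 fell in a cluster of 11 genes with the Y-linked genes Kdm5d, Uty, Ddx3y and Eif2s3y. A link with sex was not tested.

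The named genes of next smallest p did not pass over the 16 libraries, but passed with the term for low Gapdh. Nfil3, a repressor tied to the circadian clock, had 21.4 to 28.8 eRPKM in the 7 tumours of ID125320, ID128992 and ID126947, the IDs of low Xist. It had 13.6 to 18.4 eRPKM in the 9 tumours of the other 4 IDs. Nfil3 was picked for its small p, and how many other genes divide the tumours in this way was not counted. A link of Nfil3 with sex was not tested. The share of Nfil3 between IDs was 87.1% (limma, adjusted p = 0.053, from 0.028 to 0.45 over 34 settings, called in 9). With the term its adjusted p was 0.019 (limma), called in 30 of 35 settings. Slc15a2, a peptide transporter gene, had 1.62 and 1.92 eRPKM in ID128992 and 4.17 to 13.8 eRPKM in all others (share 83.5%; limma, adjusted p = 0.066, from 0.0036 to 0.45, or 0.029 with the term, called in 20 of 35). Hspa1b, an inducible heat shock gene, had 6.67 eRPKM in ID126947-A, 1.78 and 2.18 eRPKM in ID126948 and 0.349 to 1.24 eRPKM elsewhere (share 89.7%; limma, adjusted p = 0.066, or 0.027 with the term, called in 18 of 34).

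**Figure D4:**
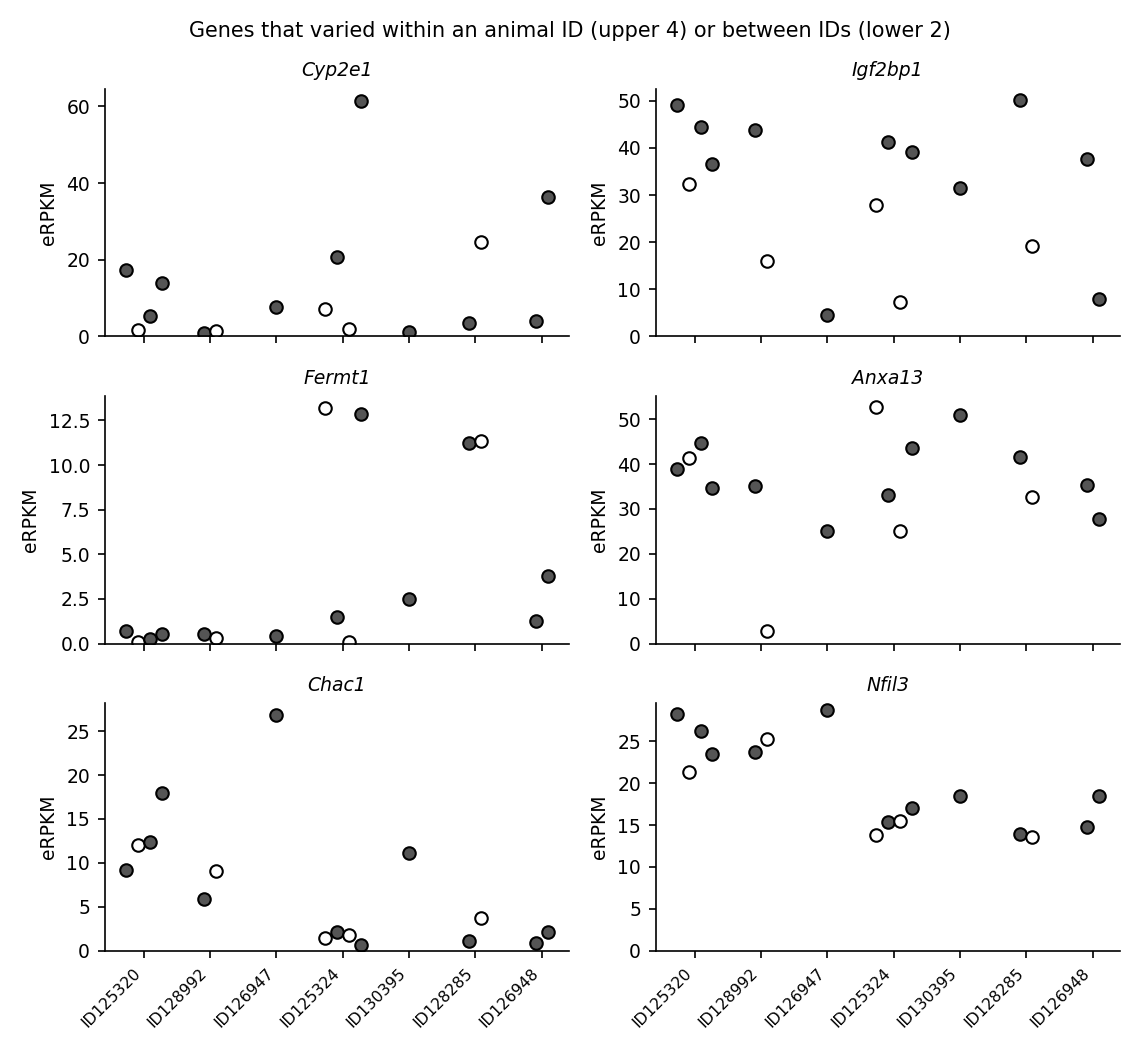
Levels of 6 genes (eRPKM, vertical axes) are shown for each Myc tumour by animal ID (horizontal axes), with open circles for the libraries with Gapdh under 30 eRPKM. Cyp2e1, Igf2bp1, Fermt1 and Anxa13 differ between tumours of an ID, while Nfil3 stands at 21.4 to 28.8 eRPKM in the first 3 IDs and at 13.6 to 18.4 eRPKM in the last 4.

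Gene lists differed widely in the share between IDs. The median was 99.4% over 6 sex chromosome genes, 72.4% over 5 genes of the imprinted Dlk1-Dio3 locus, 50.2% over 18 circadian clock genes, 49.6% over 19 immediate early genes, 49.1% over 26 genes of oxidative phosphorylation and 45.1% over 23 genes of the integrated stress response, against 22.7% over all genes. The F-test called 5 sex chromosome genes, 1 of the stress response and 0 of the other 4 lists (limma), against 0.0527% of all genes. At an unadjusted p under 0.05 there were 3 imprinted, 9 clock, 11 immediate early, 22 oxidative phosphorylation and 13 stress response genes, against 19.8% of all genes. The oxidative phosphorylation genes moved together (median pairwise r 0.92) and summed to 1838 to 2788 eRPKM in the libraries of low Gapdh and 1446 to 2162 eRPKM in the others. Their median share was 61.5% in the 11 libraries and 68.6% with the term for low Gapdh, with which 6 of the 26 passed (limma), against 3.27% of all genes.

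Meg3, a noncoding RNA of the Dlk1-Dio3 locus, had 6.64 to 8.11 eRPKM in the 4 tumours of ID125324, 7.01 to 10.8 eRPKM in those of ID125320 and 11.9 to 17.6 eRPKM in the other 8 tumours. The share between IDs was 80.4% (limma, adjusted p = 0.13, or 0.029 with the term for low Gapdh). Rtl1, a retrotransposon-derived gene of the same locus, had 4.03 to 5.56 eRPKM in ID125324 and 8.41 to 10.3 eRPKM in ID128992, ID126947 and ID130395 (share 72.4%; limma, adjusted p = 0.17, or 0.047 with the term). Per1, a core clock gene, had 18.6 and 21.1 eRPKM in ID126948 and 8.999 to 14.8 eRPKM in all others (share 82.3%; limma, adjusted p = 0.14, or 0.037 with the term). With the term Meg3 was called in 19, Rtl1 in 13 and Per1 in 17 of 35 settings. Without the term each of these genes was called in 0 of 34 settings. The hour of sampling is not in the labels. Rtl1 has antisense transcripts at its locus, and without strand their reads cannot be told apart.

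Other lists varied mainly within IDs. The median share was -42.9% over 14 antigen presentation genes, -16.9% over 32 drug metabolism genes, -12.8% over 13 female-biased liver genes, -4.51% over 28 histone genes and -1.74% over 21 acute phase genes. In the 11 libraries the values for these lists were 3.44%, 0.542%, 11.0%, 37.3% and 21.1%, so the histones then lay above all genes (28.2%). The hepatocyte cluster had a median share of -7.41% and 0 genes called by the F-test. Cyp2e1 had 7.19, 20.75, 1.93 and 61.5 eRPKM in tumours A, B, C and D of ID125324, and 4.10 and 36.4 eRPKM in tumours A and C of ID126948. The erythroid cluster had a median share of 34.5% and also 0 genes called, and Slc4a1 had 37.1, 11.7, 12.5 and 74.2 eRPKM in tumours A, B, C and D of ID125320. For the erythroid list the share was 44.4% in 16 libraries and 16.6% in the 11.

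**Figure D5:**
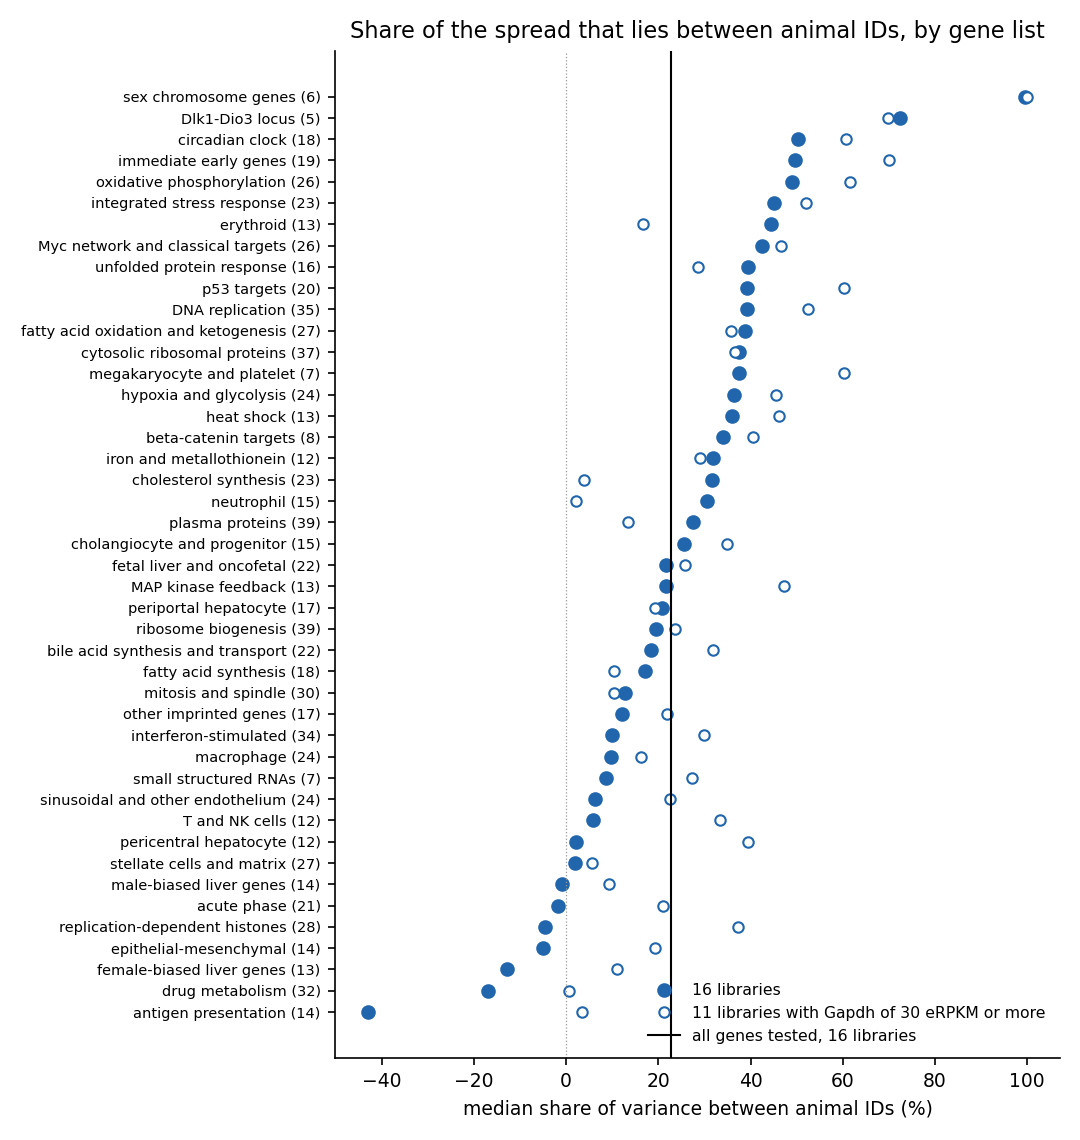
The median share of variance between animal IDs (%, horizontal axis) is shown for gene lists with at least 5 genes tested (number in brackets), over all 16 libraries (filled) and over the 11 with Gapdh of 30 eRPKM or more (open). The line marks the 22.7% of all genes. Sex chromosome genes stand at 99.4% and antigen presentation genes at -42.9% over the 16 libraries.

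Some transcripts were high in most nodules and low in a few, or the reverse. Igf2bp1 was at 27.8 to 50.2 eRPKM in 11 tumours and at 4.47 to 19.1 eRPKM in ID126947-A, ID125324-C, ID126948-C, ID128992-B and ID128285-B. Of these 5 tumours, 3 are libraries of low Gapdh (ID125324-C, ID128992-B and ID128285-B). Its spread was 6.50 times the trend in the 16 libraries and 8.57 times in the 11. It ran from 0.107 to 50.9 eRPKM in MycVD tumours and reached 0.187 eRPKM in control livers. Fermt1 was at 11.2 to 13.2 eRPKM in ID125324-A, ID125324-D, ID128285-A and ID128285-B and at 0.0914 to 3.76 eRPKM in the other 12, with 1.49 and 0.0914 eRPKM in ID125324-B and ID125324-C.

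Genes set apart in 1 tumour were few. At 5 eRPKM or more and at least 4 times the next tumour (on eRPKM + 0.5), 11 genes stood out, 8 of them in ID125324-D. Dpt, an extracellular matrix gene, had 10.4 eRPKM there and at most 0.519 elsewhere, Dmbt1, a secreted scavenger receptor gene, 5.70 and at most 0.0734, and Sult3a1, a sulfotransferase gene, 8.37 and at most 0.336. The others in ID125324-D were Mmrn1, Ugt3a2, Krt19, a keratin of bile ducts, Cyp4a10 and Slco1a1. Cubn, the endocytic receptor cubilin, had 17.3 eRPKM in ID128992-B and at most 3.51 elsewhere, Xlr3a, an X-linked gene with near-identical neighbours, 18.5 in ID128285-A and at most 1.45, and Ubap1l 6.10 in ID126947-A and at most 0.888. In the 5 IDs with 2 or more tumours, no gene was at 5 eRPKM or more in every tumour of the ID and at least 2-fold above all other tumours (on eRPKM + 0.5).

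By the converse rule, chosen after the values were seen, 4 genes were low in 1 tumour. Anxa13, an annexin of epithelia, was at 2.88 eRPKM in ID128992-B and 25.02 to 52.6 eRPKM in the others. Phlda2, an imprinted growth gene, was at 8.80 eRPKM in ID128992-B and 41.8 to 96.1 eRPKM in the others, and Cdkn1c, an imprinted cell cycle inhibitor of the same chromosomal domain, was at 20.4 eRPKM there and 54.15 to 106 eRPKM in the others. Cdkn1c was not among the 4. Evc and Evc2, neighbouring genes of hedgehog signalling, were low in ID130395-A, at 0.916 and 1.05 eRPKM, against 5.27 to 14.3 and 8.09 to 24.6 eRPKM in the others. ID128992-B and ID126947-A were also the highest for the stress factor gene Atf3, at 37.36 and 37.41 eRPKM, and for the cell cycle inhibitor Cdkn1a, at 48.9 and 44.3 eRPKM. The other 14 tumours had 5.605 to 23.6 eRPKM of Atf3 and 15.6 to 27.65 eRPKM of Cdkn1a.

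Spread was last compared with that of the other groups, with tumour A of each ID so that each animal counts once. Against control livers 0 of 11972 genes differed in spread (limma on absolute deviations from the group mean, two-sided, Benjamini-Hochberg adjustment). At an unadjusted p under 0.05 there were 1673, of which 453 were wider and 1220 narrower in Myc tumours. The median SD was 0.194 in Myc tumours and 0.234 in control livers. For 15 mitosis genes the median SD was 0.139 in Myc tumours and 0.41 in control livers, whose mitosis list summed to only 27.5 to 76.1 eRPKM. Leaving out the libraries of low Gapdh here removed ID125324-A, and so all of ID125324, and 1 control liver. Without them 93 of 11994 genes passed (0.775%), 63 of them wider in Myc tumours (0.525%). Clec4f was among these, with an SD of 1.52 in Myc tumours and 0.101 in control livers (limma, adjusted p = 0.0017), and so was Hp, with 1.47 and 0.235 (adjusted p = 0.030). With all libraries their adjusted p were 0.092 and 0.12.

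Against MycVD tumours 3 of 12950 genes differed in spread (0.0232%), all narrower in Myc tumours. Anxa13 had an SD of 0.357 in Myc tumours and 2.45 in MycVD tumours (limma, adjusted p = 0.029), Lin28b, an oncofetal RNA-binding protein gene, 0.204 and 2.27 (adjusted p = 0.029), and Sort1, the sorting receptor sortilin, 0.0562 and 0.915 (adjusted p = 0.043). The tumours A of the Myc group leave out ID128992-B, in which Anxa13 was low. Without the libraries of low Gapdh, which again leaves out ID125324, 0 of 12933 genes passed, and these 3 had an adjusted p of 0.076. With all libraries 1916 genes had an unadjusted p under 0.05, of which 237 were wider and 1679 narrower in Myc tumours. The median SD over 23 drug metabolism genes was 0.437 in the tumours A of the Myc group and 1.09 in MycVD tumours. The tumours A also leave out ID125324-D, ID126948-C and ID128285-B. These had the highest drug metabolism sums of the Myc group, at 1081, 898 and 617 eRPKM. With every Myc tumour counted, the median SD was 1.13 over the 32 drug metabolism genes tested there. Whether the full Myc group was narrower than MycVD tumours in this list was not tested. Slc4a1 had SDs of 1.30 and 1.47 in Myc and MycVD tumours (limma, adjusted p = 0.95), a difference not detectable with these numbers of animals.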

How the data were processed

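RNA-seq was deposited as 1 table of 21671 genes in 46 libraries, and its unit is exonic RPKM computed by the authors. The submitters' processing notes name TopHat, TopHat2 2.0.8 and the mouse build mm9. How reads were counted is not stated there. Whole reads were recovered from the deposited RPKM steps for 19418 genes, which hold 99.74% of the values above 0. This gave the depths and the read-sampling SD. A gene length was accepted where every value was whole within 0.001 reads. A second way of finding the length gave the same one in 88.05% of 8441 genes. Sampling errors cover counting only. Reads per kilobase approach a ceiling, which compresses abundant genes such as Alb.

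Values were analysed as log2(eRPKM + 0.5) in genes with a mean of at least 1 eRPKM, so differences of low genes are understated. IDs were compared with limma 3.58.1 (R 4.3.3), a moderated F-test with a variance trend. Spread tests used limma on absolute deviations. Variance was divided by the method of moments, and shares of single genes were set to 0 where negative. Figures and clusters used Python 3.11.15, scipy 1.17.1 and matplotlib 3.10.9. Scripts were tested on simulated data. Nothing in the labels shows how tumours of an ID were sampled or that they are independent. The F-test p-values set differences between IDs against the spread of libraries within IDs. Those of the spread tests rest on tumour A of each ID.

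The tumours and gene lists were chosen with earlier results of these data known. Named genes are, apart from provisional, small RNA and pseudogene names, the 8 of largest and 3 of smallest excess spread in each band of mean level, the 8 of smallest F-test p, the 8 of largest spread within IDs, genes set apart in 1 tumour, 2 to 4 genes of each list and 5 of each cluster. Other members of clusters are named from their membership alone. Some genes that this rule picks are not reported here. The term for low Gapdh, the fits without those libraries and the correction of abundant genes for the ceiling (start position correction) were chosen after seeing the data. Alternatives changed the pseudocount, filter, scaling, weights, libraries and measure of spread.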

Additional observations from a re-analysis of the deposited data

Results flagged for a closer look

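Among 38 genes whose 7 ID means were searched for an ID far from the others, 2 were picked out. Chance flags about 1 in 20 such groups, a rate that need not hold for genes picked from these same data. Igf2bp1 was lowest in ID126947, at 4.47 eRPKM in its only tumour, and the gap to the next ID was 0.613 of the whole range. Slc15a2 was lowest in ID128992, with a mean of 1.77 eRPKM over its 2 tumours, and a gap of 0.654 of the range.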

How the results depend on the processing

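The count of 7 genes differing between IDs was 11 with array weights, 14 with only the IDs of 2 or more libraries, 15 without the variance trend, 12 without the 5 libraries of low Gapdh and 434 with a term for them, and 5 to 13 with a library or ID left out. The count of 434 was 101 with no filter, 717 with a mean of at least 5 eRPKM, 189 with median-ratio scaling, 762 with quantile normalisation, 665 with start position correction, 16 with a depth term, 1876 with array weights, 1321 with only IDs of 2 or more libraries, 153 without the variance trend and 6 to 1227 with a library or ID left out. The median share of 22.67% was 18.09% with no filter, 28.18% without the 5 libraries, 34.49% with the term, 29.14% with counting noise subtracted and 17.15% to 27.5% with a library or ID left out. Of the 100 genes of largest excess spread, 58 were shared with the coefficient of variation, 56 with the median absolute deviation and 82 to 96 with a library or ID left out.

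The spread test against control livers called 243 genes with no filter, 84 with quantile normalisation, 163 with the means of the tumours of each ID, 93 without libraries of low Gapdh and 0 to 14 with a library left out, against 0. That against MycVD tumours called 25 with no filter, 1 with a pseudocount of 1, 1 with ID means, 0 with a mean of at least 5 eRPKM, quantile normalisation, squared deviations, deviations from the median, start position correction or without libraries of low Gapdh, and 0 to 3 with a library left out, against 3. The excess spread of Ddx3y was -0.27 by the median absolute deviation and that of Uty -0.11 with a mean of at least 5 eRPKM, against positive values otherwise. The cause of these changes was not tested. No paired analysis was possible because ID numbers and letters pair no tumours across groups.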
